A study of Mus musculus with 55 samples.

Results

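The genes described here make bile acids, conjugate them, carry them into and out of the hepatocyte, or sense them. They are Cyp7a1, Cyp8b1, Cyp27a1, Cyp7b1, Slc27a5, Baat, Slc10a1, Abcb11, Nr1h4 and Nr0b2, and they were chosen by name, with earlier results of these data known. All 10 were found among the 34490 gene symbols that both batches of count files share, and all 10 were above the limit on low counts in every fit.

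Hepatocytes turn cholesterol into bile acids by a classic route, which Cyp7a1 opens and limits, and by an alternative route through Cyp27a1 and Cyp7b1. Cyp8b1 sets how much of the product is cholic acid, Slc27a5 and Baat join bile acids to coenzyme A and then to taurine or glycine, Slc10a1 brings bile acids back from the portal blood and Abcb11 pumps them into the canaliculus. Bile acids bind the receptor FXR, encoded by Nr1h4, which raises the repressor SHP, encoded by Nr0b2, and so lowers Cyp7a1. Cyp7a1 RNA is known to be highest around the central vein and to follow the time of day and feeding.

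RNA of whole adult livers of C57BL/6 mice was sequenced in 53 libraries. The R&Zflox mice carry loxP sites around the exons of the RING domains of Rnf43 and Znrf3, E3 ubiquitin ligases that remove WNT receptors from the cell surface, and in R&Zdel mice these exons were deleted in adult hepatocytes. Undamaged livers were taken at 1 month (1M), 3 months (3M) and 7 months (7M) after deletion. Other livers were taken at 4, 50 and 170 days of recovery from repeated CCl4, a toxin of pericentral hepatocytes (chronic damage, CD), or at 7 and 21 days after partial hepatectomy (PHx).

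Deletion was made by AAV8 virus with Cre under the hepatocyte TBG promoter in the second batch at 1M, at 3M and before PHx, and by tamoxifen with AlbCre-ERT2 in the second batch at 7M and in the whole first batch, which holds all CD livers. R&Zflox controls were given null virus or vehicle, and the route of deletion cannot be told apart from the time point between 1M (virus alone) and 7M (tamoxifen alone). There were 4 R&Zdel and 4 R&Zflox libraries at 1M, 2 and 5 at 3M, 5 and 5 at 7M, 2 and 2 at 4 days after CD, 2 and 1 at 50 days, 2 and 2 at 170 days, and 3 and 3 at each time after PHx. A further R&Zdel library at 7M, whose mouse has no listed sex, and 4 libraries whose labels conflict or give no condition were kept out of these comparisons. Both R&Zflox libraries at 170 days were placed there by their GEO titles, whereas the study's own list of samples gives them as controls at 50 days, so every genotype comparison at 170 days depends on that placement. The methods text has unrecombined CD controls on corn oil, whereas the labels give chronic damage for both genotypes. In the R&Zflox libraries at 4 days the pericentral enzyme Cyp2e1 was at 2366 and 1896 CPM, which scale a gene's counts to the library total, against 8806 and 8541 CPM in undamaged R&Zflox livers of the same batch. At 170 days R&Zdel livers can hold tumours, and whether a sampled piece came from one is not given.

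Total counts ran from 11721687 to 38692089 per library. The lowest count of any of the 10 genes in a library was 178, for Cyp7b1, with a counting error of 7.5%. Rnf43 ranged from 19.0 to 68.4 CPM in R&Zdel and from 3.39 to 58.7 CPM in R&Zflox libraries, and Znrf3 from 11.9 to 166 and from 4.63 to 35.3 CPM. These counts cover exons that were not deleted, so they do not check the genotype. The pericentral markers Glul and Cyp2e1 were higher and the periportal markers Hal and Cyp2f2 lower in undamaged R&Zdel livers (log2 fold changes averaged over the time points 2.66, 1.20, -2.94 and -3.16). In 1 library listed as male, R&Zflox replicate 3 at 7 days after PHx, Xist and Y-linked RNA were at female levels. The genotype differences of Cyp27a1 and Cyp7a1 at 7 days are therefore also given with it entered as female. Hour of collection is not given. The clock output gene Dbp is for that reason printed beside Cyp7a1.

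Sequence upstream of the RefSeq start site is shown for 4 of the members called between genotypes for which a RefSeq window was matched: Cyp27a1 and Abcb11 in undamaged livers and Cyp8b1 and Slc10a1 after CD. Each run is 250 bases, 5′ to 3′ on the gene's strand, of build GRCm38.p6, at chr1:74713285-74713534 (plus strand), chr2:69342617-69342866 (minus), chr9:121916306-121916555 (minus) and chr12:80968706-80968955 (minus). Capitals mark the nuclear receptor half-site AGGTCA, read on either strand.
Cyp27a1: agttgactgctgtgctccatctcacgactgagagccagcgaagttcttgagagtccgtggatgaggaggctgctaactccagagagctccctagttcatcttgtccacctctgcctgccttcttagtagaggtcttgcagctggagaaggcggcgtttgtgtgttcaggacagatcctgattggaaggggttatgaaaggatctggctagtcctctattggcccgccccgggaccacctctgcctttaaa
Abcb11: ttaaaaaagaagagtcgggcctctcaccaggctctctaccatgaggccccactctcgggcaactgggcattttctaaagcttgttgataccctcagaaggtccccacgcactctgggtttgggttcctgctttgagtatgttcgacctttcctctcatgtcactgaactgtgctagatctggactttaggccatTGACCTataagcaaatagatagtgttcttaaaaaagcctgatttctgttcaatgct
Cyp8b1: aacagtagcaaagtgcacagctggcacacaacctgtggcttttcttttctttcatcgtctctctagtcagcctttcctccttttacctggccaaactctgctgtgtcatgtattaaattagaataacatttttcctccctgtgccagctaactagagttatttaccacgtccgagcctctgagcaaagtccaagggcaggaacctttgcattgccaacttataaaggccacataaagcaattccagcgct
Slc10a1: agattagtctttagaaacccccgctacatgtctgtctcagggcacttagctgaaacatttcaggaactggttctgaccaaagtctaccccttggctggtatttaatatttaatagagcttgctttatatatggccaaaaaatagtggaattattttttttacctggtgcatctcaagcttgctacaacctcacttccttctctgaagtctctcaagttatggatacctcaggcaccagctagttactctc
Of these 4 runs only that of Abcb11 holds the half-site, on the opposite strand, 56 bases before the start. A further annotated start of Slc10a1 has its window at chr12:80968080-80968329, and that one holds the half-site 87 bases before the start, as does the window of Nr1h4 at 214 bases. Promoter windows were matched for 6 of the 10 members, not for Cyp7a1, Cyp7b1, Baat or Slc27a5, 7 windows in all, and the half-site was in 3 of the 7 against 16.3% of 32851 RefSeq promoter windows. The inverted repeat of the half-site with 1 base between (IR1), the TCF letters CTTTGAT and the D-box letters TTATGTAA of the Dbp family, each read on both strands, were in 0 of the 7 windows and in 0.00913%, 3.73% and 0.938% of all windows. A match or its absence in such a window is a description of letters and not of binding.

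In undamaged R&Zflox livers Slc27a5 and Slc10a1 were the most abundant members. Per kilobase of exon, Slc27a5 stood first, at 502.4 ± 138 CPM per kb (SD, n = 10) in the second batch and 568 ± 76.2 (n = 4) in the first, and Slc10a1 next, at 324 ± 94.2 and 374 ± 53.6 CPM per kb. Cyp27a1 at 247 ± 82.9 and Cyp8b1 at 206 ± 77.6 CPM per kb in the second batch lay within their spread of each other and changed places in the first batch. Below them, in the second batch, came Nr0b2 at 109 ± 58.1, Baat at 91.4 ± 26.9, Cyp7b1 at 72.7 ± 33.2, Nr1h4 at 50.9 ± 15.4 and Abcb11 at 49.3 ± 12.6 CPM per kb, again with overlapping spreads. Cyp7a1, the rate-limiting enzyme, was the least abundant RNA of the 10 in both batches, at 22.97 ± 15.9 and 12.6 ± 3.86 CPM per kb.

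**Figure D1:**
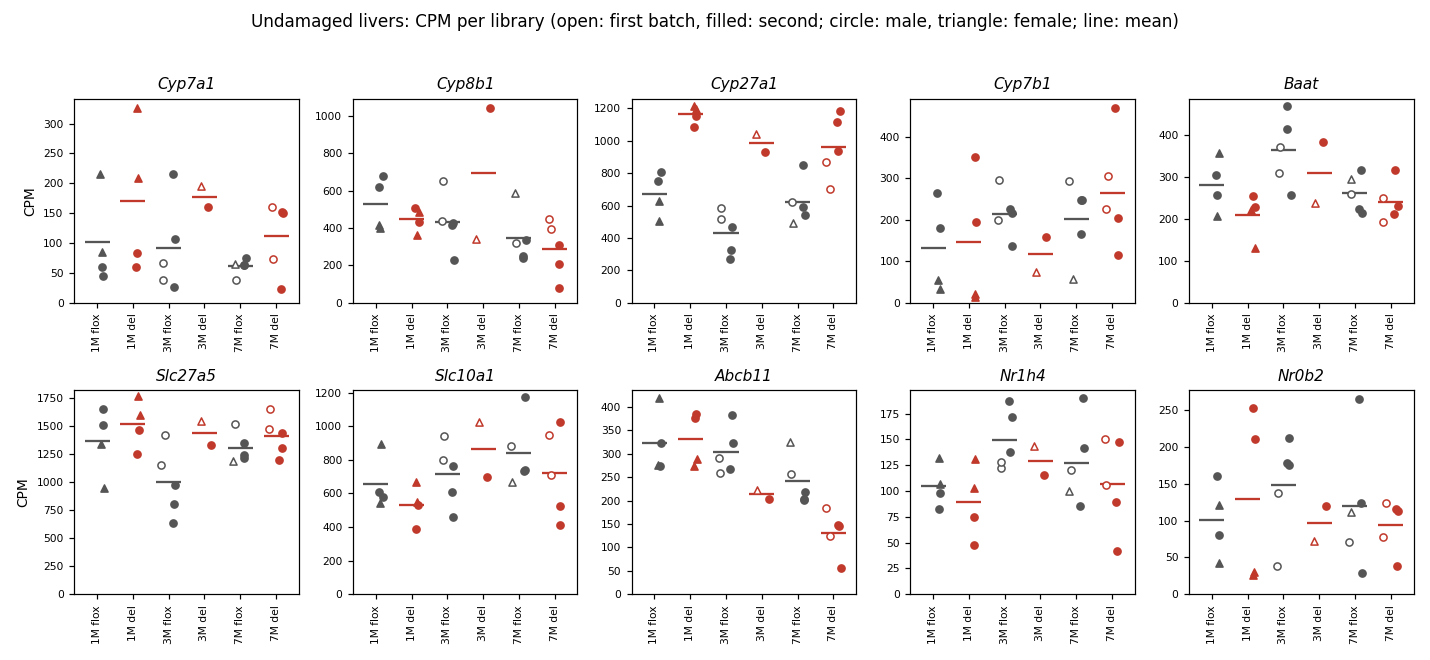
CPM of each member in every undamaged library used in the fits (y axis, from 0), by time point and genotype (x axis); open symbols are the first batch and filled ones the second, circles male and triangles female mice, and lines are means. Within a batch, every R&Zdel library lies above every R&Zflox library of its time point in Cyp27a1. Over both batches its ranges overlap, at 703 to 1213 CPM in R&Zdel and 273 to 848 CPM in R&Zflox. Cyp7a1 overlaps at each time.

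Cyp27a1, the mitochondrial sterol 27-hydroxylase of the alternative route (chr1:74713148-74737897, plus strand), was higher in undamaged R&Zdel livers at every time point. At 1M it was at 1197, 1213, 1156 and 1088 CPM in R&Zdel and at 751, 805, 502.7 and 629 CPM in R&Zflox livers. At 3M it was at 1040 CPM in R&Zdel against 582 and 518 CPM in R&Zflox in the first batch, and at 929 CPM against 273, 324 and 469 CPM in the second. At 7M it was at 703 and 871 CPM against 622 and 490 CPM in the first batch, and at 1115, 1181 and 938 CPM against 848, 544 and 594 CPM in the second. Within a batch, every R&Zdel library lay above every R&Zflox library of its time point. The share of all genes whose compared groups lie apart was not counted, here or in any later comparison. The log2 fold change averaged over the time points was 0.87 (SE 0.13), a 1.82-fold higher level (edgeR's quasi-likelihood test, Benjamini-Hochberg adjusted p = 0.000152 over 12848 genes). It was called in all 25 fits that left out a library, with adjusted p between 5.8e-05 and 0.00232, and within the second batch the average was 0.95 (adjusted p = 0.00056).

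By time point, in the same edgeR quasi-likelihood fit, the log2 difference of R&Zdel from R&Zflox in Cyp27a1 was 0.63 ± 0.21 (SE, adjusted p = 0.295) 1 month after deletion, 1.28 ± 0.26 (adjusted p = 0.0301) after 3 months and 0.69 ± 0.19 (adjusted p = 0.186) after 7 months. Only the 3M value passed the threshold of 0.1. It was 1 of 10 members called at 3M, where 0.226% of all genes were called, and it rests on 2 R&Zdel libraries: leaving either out took the adjusted p as high as 0.353. None of the differences between time points passed the test.

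Abcb11, the bile salt export pump of the canalicular membrane (chr2:69238282-69342616, minus strand), had lower values in undamaged R&Zdel livers at 3M and 7M. At 1M its values overlapped, at 274, 288, 377 and 385 CPM in R&Zdel and 324, 274, 419 and 277 CPM in R&Zflox. At 3M it was at 223 and 204 CPM in R&Zdel and between 258 and 383 CPM in the 5 R&Zflox libraries. At 7M it was at 124, 185, 149, 145 and 54.9 CPM in R&Zdel and at 257, 325, 201, 203 and 219 CPM in R&Zflox. The groups did not overlap at 3M or at 7M, where the share of all genes without overlap was not counted. The R&Zdel library at 7M without a listed sex, which the fit leaves out, was at 282 CPM. Library i707_i517, also left out for its conflicting labels, was at 276 CPM, and the study's list of samples gives it as R&Zdel at 3M. The log2 difference at 7M was -0.81 (SE 0.22, adjusted p = 0.155) and the average over times was -0.51 (SE 0.15, adjusted p = 0.0801, edgeR's quasi-likelihood test). With the R&Zdel library without a listed sex added and no sex term, the average was -0.48 and no longer passed (adjusted p = 0.137), and in male mice alone it was -0.35 (adjusted p = 0.533). Whether the effect at 7M differs from that at 1M was tested in the same fit and did not pass (difference -0.67, adjusted p = 0.849).

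Cyp7a1, the cholesterol 7α-hydroxylase (chr4:6265612-6275632, minus strand), had no called change in undamaged livers, over a wide spread between libraries. At 1M it was at 327, 209, 84.1 and 59.4 CPM in R&Zdel, the first 2 being female, and at 60.6, 45.3, 215 and 85.2 CPM in R&Zflox, the last 2 being female. At 3M it was at 195 and 160 CPM in R&Zdel, and at 67.4, 39.1, 26.8, 106 and 216 CPM in R&Zflox. At 7M it was at 161, 74.1, 23.9, 152 and 151 CPM in R&Zdel, and at 38.3, 65.8, 75.8, 64.2 and 63.5 CPM in R&Zflox. The groups overlapped at each time, and at 7M 1 R&Zdel library was the lowest of all 10 while the highest 3 were R&Zdel. By edgeR's quasi-likelihood test the log2 difference was 0.47 ± 0.50 (SE, adjusted p = 0.981), 0.48 ± 0.60 (adjusted p = 0.948) and 1.30 ± 0.46 (adjusted p = 0.362) at the 3 times in turn, and 0.75 ± 0.30 (adjusted p = 0.265) on average. At 7M Cyp7a1 was called by DESeq2 (adjusted p = 0.0603) and by edgeR without the filter on low counts (adjusted p = 0.0874).

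Dbp was high in some libraries that were high in Cyp7a1, but over the 30 libraries of the second batch the 2 genes had a Spearman's rho of only 0.15. For the clock genes Nr1d1, Per2, Ciart and Arntl the rho with Cyp7a1 was 0.08, 0.05, -0.13 and -0.23. At 1M Dbp was at 107 and 102 CPM in the female R&Zdel libraries, which were 2 of the 3 highest in Cyp7a1, and between 0 and 10.9 CPM in the other 6. At 7M both genotypes were mostly high, with 63.4 to 156 CPM in the R&Zdel libraries of the fit and 3.92 to 165 CPM in R&Zflox. The part of collection time in the Cyp7a1 and Cyp27a1 values was not tested. In male mice alone the 1M difference of Cyp27a1 was 0.40 (SE 0.32, adjusted p = 0.957, edgeR's quasi-likelihood test), and Dbp in these 1M libraries was at 10.9 CPM or less.

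**Figure D2:**
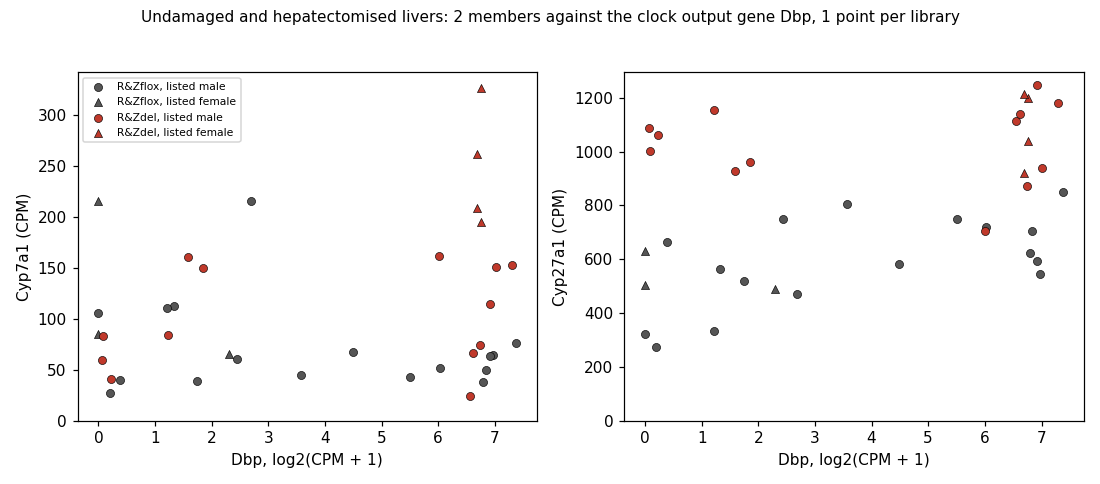
CPM of Cyp7a1 (left) and Cyp27a1 (right) on the y axis against log2(CPM + 1) of Dbp on the x axis, 1 point per undamaged or PHx library, by genotype (color) and listed sex (shape). The highest Cyp7a1 value, 327 CPM, is in a female R&Zdel library with Dbp at 107 CPM, and in the Cyp27a1 panel R&Zdel libraries lie mostly above R&Zflox libraries. The part of collection time was not tested.

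The other 7 members had no called change in undamaged livers. Their differences ran from -0.62 (Baat) to 0.00 (Slc27a5) at 1M, from -0.43 (Nr1h4) to 0.86 (Cyp8b1) at 3M and from -0.50 (Nr0b2) to 0.15 (Slc27a5) at 7M, on the log2 scale. At 1M, 0 of 10 members were called by edgeR's quasi-likelihood test, by edgeR's likelihood ratio test and by DESeq2, where the first called 0.498% of all genes. An unadjusted p under 0.05 was reached by 2 members, Cyp27a1 and Baat, where 7.74% of all genes reached it. At 7M, 0 were called, where 0.576% of all genes were, while 3 (Cyp7a1, Cyp27a1 and Abcb11) had an unadjusted p under 0.05 (8.89% of all genes), the likelihood ratio test called Abcb11 and DESeq2 called the same 3. On average, 2 of 10 members were called, Cyp27a1 and Abcb11, in opposite directions, where 2.58% of all genes were. By the stricter of the study's rules, which also asks for a log2 change above 1, 0 of 10 were called on average, where 1.2% of all genes were. The same rule called 1 of 10 at 3M, Cyp27a1, where it called 0.226% of all genes. At 1M and 7M it called 0 of 10, where 0.436% and 0.451% of all genes passed. The looser rule of its lipid analysis, an unadjusted p under 0.05 with a log2 change above 0.4, takes 2 members at 1M (Cyp27a1 and Baat), 2 at 3M (Cyp27a1 and Slc27a5) and 3 at 7M as on average (Cyp7a1, Cyp27a1 and Abcb11), where 7.73%, 6.43%, 8.81% and 11% of all genes passed. The median difference of the 10 members on average was -0.11, beside -0.03 over all genes.

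Of 38 other bile acid genes tested, 0 were called at 1M, 3M or 7M by edgeR's quasi-likelihood test, while those with an unadjusted p under 0.05 were 2 higher with 2 lower after 1 month, 4 with 2 after 3 months, and 7 with 0 after 7 months. On average 3 were called, all higher. They were Abcg8, a cholesterol half-transporter of the canaliculus, at 1.06 (SE 0.23, adjusted p = 0.0139), Slco1b2, a basolateral organic anion importer, at 0.64 (SE 0.13, adjusted p = 0.006), and Abcb4, the canalicular phospholipid exporter, at 0.55 (SE 0.13, adjusted p = 0.0288, edgeR's quasi-likelihood test for the 3).

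Partial hepatectomy removes part of the liver, which then regrows, and the comparison asks how the genotypes differ 7 and 21 days later. Cyp27a1 again had higher values in R&Zdel livers, without overlap at either time. How many of all genes lie apart in groups of 3 after PHx was not counted. At 7 days it was at 962, 1001 and 1061 CPM in R&Zdel and at 665, 563 and 333 CPM in R&Zflox. At 21 days it was at 1246, 1141 and 920 CPM in R&Zdel and at 751, 721 and 704.7 CPM in R&Zflox. The log2 difference was 0.87 (SE 0.20, adjusted p = 0.099) at 7 days, just inside the threshold, and 0.56 (SE 0.20, adjusted p = 0.438) at 21 days, by edgeR's quasi-likelihood test. It was 1 of 10 members called at 7 days, where 0.352% of all genes were. By the stricter rule for PHx, an unadjusted p under 0.05 with a log2 change above 1, 0 were called, where 3.99% of genes were. With R&Zflox replicate 3 entered as female it was 0.76 (adjusted p = 0.0886), and leaving out any of the 3 R&Zdel libraries or R&Zflox replicate 2 or 3 ended the call, with adjusted p between 0.0274 and 0.456 over the 6 fits.

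**Figure D3:**
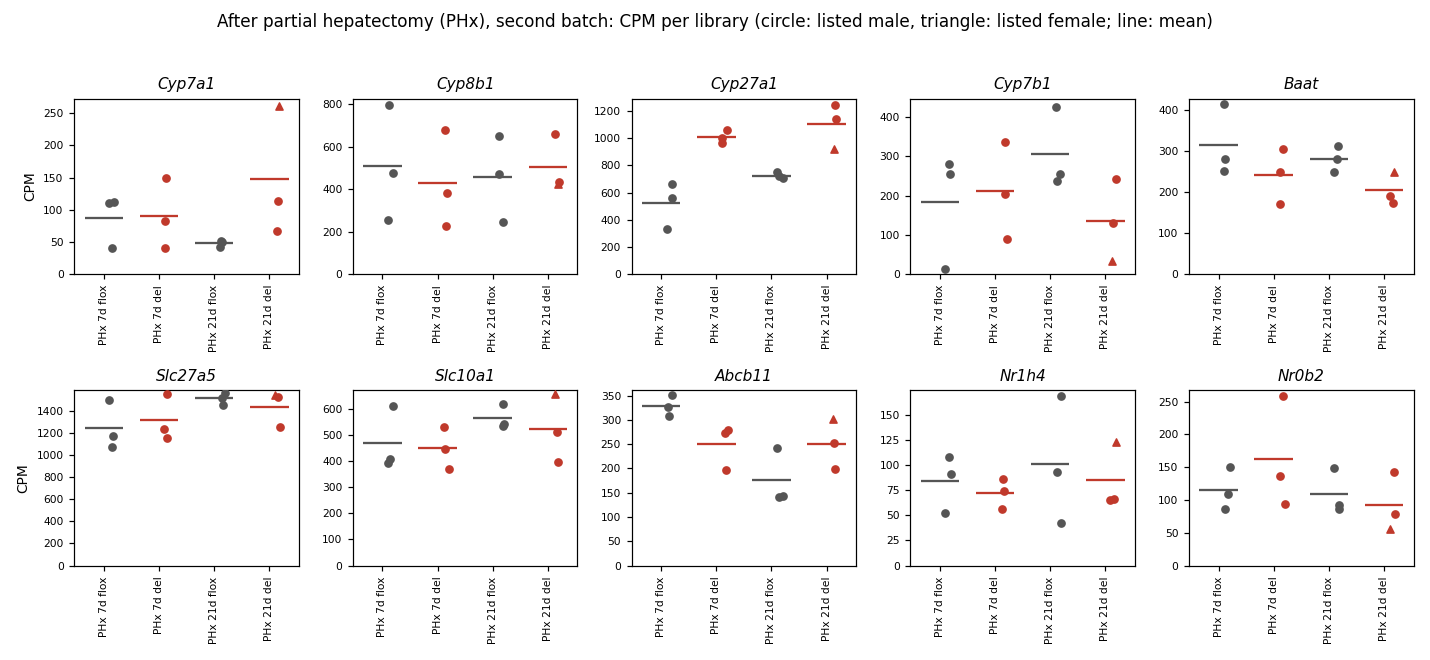
CPM of each member (y axis, from 0) in every library at 7 and 21 days after PHx, by genotype, with circles for listed male and triangles for listed female mice and lines for means. Cyp27a1 is the member whose genotypes do not overlap at either time, at 920 CPM or more in R&Zdel and 751 CPM or less in R&Zflox. The share of all genes without overlap was not counted.

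Cyp7a1 was at 150, 82.8 and 40.6 CPM in R&Zdel and at 40.3, 113 and 111 CPM in R&Zflox at 7 days, and the groups overlapped. At 21 days it was at 114, 66.8 and 262 CPM in R&Zdel, the last a female, and at 42.6, 51.2 and 49.7 CPM in R&Zflox, without overlap. The difference of 0.76 at 21 days did not pass (SE 0.45, adjusted p = 0.656, edgeR's quasi-likelihood test), and that at 7 days, -0.01, turned to 0.42 with replicate 3 entered as female. At 21 days 0 of 10 members were called by edgeR's quasi-likelihood test, its likelihood ratio test or DESeq2, where the first called 0.423% of genes, and Cyp27a1 alone had an unadjusted p under 0.05, where 8.67% of genes had. Abcb11 at 21 days was at 199, 253 and 301 CPM in R&Zdel and at 242, 143 and 142 CPM in R&Zflox, which overlap (difference 0.39, SE 0.25).

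Within R&Zflox livers, those after PHx were compared with undamaged 1M livers of the same batch. PHx is not the only difference, since time after the virus differs between these groups. The 1M group also holds female mice, while these PHx mice are all listed male. For Cyp7a1 at 7 days the log2 difference was 0.74 with the sex term and -0.23 without it. Members called numbered 0 at 7 days and 0 at 21 days by edgeR's quasi-likelihood test, which called 0.0235% and 0% of all genes. At an unadjusted p under 0.05, 1 of 10 members passed at each time, Cyp27a1 at -0.54 (SE 0.20) at 7 days and Abcb11 at -0.88 (SE 0.25) at 21 days, where 5.79% and 6.93% of all genes did, and of the other tests DESeq2 called Abcb11 at 21 days and the likelihood ratio test called 0 at both times. Whether the genotype effect after PHx differs from that at 1M was tested for each member, and 0 passed by any of the 3 tests, where 0% of genes did. Of 37 other bile acid genes, 1 was called at each time, Slco1b2, at 0.93 (SE 0.18, adjusted p = 0.0211) at 7 days and 0.96 (SE 0.18, adjusted p = 0.0186) at 21 days by edgeR's quasi-likelihood test.

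After repeated CCl4 the genes for bile acid conjugation, uptake and cholic acid synthesis were lower in R&Zdel than in R&Zflox livers at 4 days of recovery. Fitted with TMM factors, Cyp8b1, Slc27a5, Slc10a1 and Baat were lower by 8.37-, 4.03-, 3.88- and 2.3-fold, with 2 libraries a genotype. Mean CPM, which carry no TMM factor, stood at smaller ratios. They were 91.3 in R&Zdel against 543 in R&Zflox for Cyp8b1 and 543 against 1544 for Slc27a5. For Slc10a1 they were 150 against 414, and for Baat 148 against 240. In all, 7 of 10 members were called lower at 4 days, where 27.6% of all genes were called and 13% were called lower. At 170 days, with R&Zflox libraries placed by title, 0 were called. In bulk livers, fewer cells of a type and less RNA per cell cannot be told apart.

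Cyp8b1, the sterol 12α-hydroxylase that makes cholic acid (chr9:121914356-121916305, minus strand), was at 110 and 72.3 CPM in R&Zdel and at 724 and 362 CPM in R&Zflox at 4 days. At 50 days it was at 317 and 669 CPM against 699 CPM in the single R&Zflox library, and at 170 days at 438 and 609 CPM against 181 and 325 CPM. The genotypes did not overlap in CPM at 4 or at 170 days, and their order was opposite at those times. The share of all genes without overlap in groups of this size was not counted. The log2 difference was -3.07 (SE 0.47, adjusted p = 0.00467) at 4 days, -0.79 (SE 0.52, adjusted p = 0.386) at 50 days and 0.84 (SE 0.44, adjusted p = 0.628) at 170 days, by edgeR's quasi-likelihood test.

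Slc27a5, the bile acid coenzyme A ligase (chr7:12988346-12998192, minus strand), was at 565 and 522 CPM in R&Zdel and at 1770 and 1319 CPM in R&Zflox at 4 days. Baat, the amino acid transferase of the next step (chr4:49489416-49507915, minus strand), was at 151 and 145 CPM against 258 and 221 CPM. Both were without overlap, with log2 differences of -2.01 (SE 0.30, adjusted p = 0.00445) and -1.20 (SE 0.23, adjusted p = 0.0107) by edgeR's quasi-likelihood test. At 50 days Slc27a5 was at 1058 and 884 CPM against 1321 CPM (difference -0.65, not called), and Baat at 147 and 200 CPM against 310 CPM, which was called (-1.09, SE 0.27, adjusted p = 0.0732, edgeR's quasi-likelihood test). At 170 days both genes overlapped between genotypes, Slc27a5 at 1427 and 1392 CPM against 1089 and 1504 CPM and Baat at 266 and 236 CPM against 231 and 349 CPM.

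Slc10a1, the sodium-coupled importer of conjugated bile acids (chr12:80953185-80968705, minus strand), was at 178 and 121 CPM in R&Zdel and at 471 and 357 CPM in R&Zflox at 4 days. At 50 days it was at 319 and 437 CPM against 939 CPM, and at 170 days at 732 and 722 CPM against 546 and 670 CPM. In CPM it was lower in R&Zdel without overlap at 4 days and higher without overlap at 170 days. At 50 days both R&Zdel values were below the single R&Zflox value. For groups this small the share of all genes that lie apart was not counted. The order at 170 days was not carried into the fitted difference, which uses TMM scaling. The log2 difference was -1.96 (SE 0.28, adjusted p = 0.00355) at 4 days, -1.57 (SE 0.31, adjusted p = 0.0549) at 50 days and 0.05 (SE 0.27, adjusted p = 0.989) at 170 days, by edgeR's quasi-likelihood test.

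Of the other called members at 4 days, Abcb11 was at 228 and 233 CPM in R&Zdel and at 310 and 246 CPM in R&Zflox (-0.78, SE 0.25, adjusted p = 0.0632), and Cyp27a1 at 387 and 344 CPM against 442 and 397 CPM (-0.70, SE 0.22, adjusted p = 0.057, edgeR's quasi-likelihood test for both). These differences are small in CPM. Scaled by library totals alone, without TMM factors, the median over all genes moves by 0.51, Abcb11 goes to -0.27, Cyp27a1 to -0.20 and Nr1h4 from -0.31 to 0.19, and 4 members are called, Cyp8b1, Baat, Slc27a5 and Slc10a1. Nr0b2, the repressor SHP (chr4:133553376-133556686, plus strand), was at 35.6 and 34.5 CPM in R&Zdel and at 119 and 39.7 CPM in R&Zflox, so that its called difference of -1.69 (SE 0.58, adjusted p = 0.0742, edgeR's quasi-likelihood test) rests mainly on 1 R&Zflox library, replicate 1; without it the difference is -0.67 and is not called. Without R&Zflox replicate 1, or without R&Zdel replicate 2, 4 members are called in all. Cyp8b1, Slc27a5, Slc10a1 and Baat were called in all 13 other settings of this comparison, which include the study's call rule on the same fit.

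**Figure D4:**
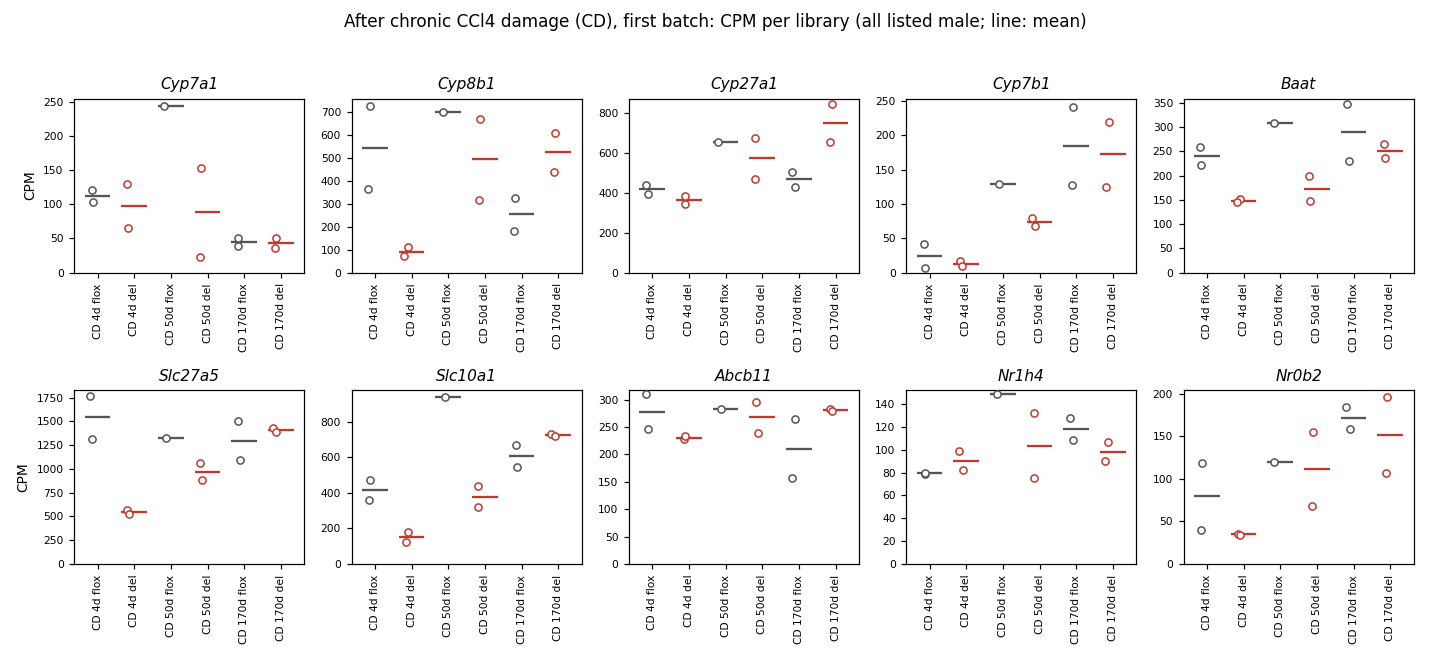
CPM of each member (y axis, from 0) in every library at 4, 50 and 170 days after CD, by genotype, with lines for means; all mice are listed male. Slc27a5 at 4 days is at 565 and 522 CPM in R&Zdel and at 1770 and 1319 CPM in R&Zflox, and at 170 days Slc27a5 overlaps between genotypes.

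Members without a call at 4 days were Cyp7a1, Cyp7b1 and Nr1h4. Cyp7a1 was at 131 and 64.8 CPM in R&Zdel and 122 and 104 CPM in R&Zflox. Cyp7b1, the oxysterol 7α-hydroxylase (chr3:18071944-18243890, minus strand), was at 16.8 and 9.59 CPM in R&Zdel and at 41.2 and 6.20 CPM in R&Zflox. Nr1h4, the receptor FXR (chr10:89454234-89533645, minus strand), was at 98.5 and 82.2 CPM in R&Zdel and 78.8 and 79.9 CPM in R&Zflox. None of the 3 passed the test (differences -0.69, -1.34 and -0.31), and the genotypes overlapped in Cyp7a1 and Cyp7b1. In Nr1h4 the R&Zdel values lay above the R&Zflox values in CPM, opposite to the fitted sign, which turns with library totals alone, as given above.

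At 50 days Cyp7a1 was at 22.8 and 153 CPM in R&Zdel, a wide spread, and at 244 CPM in R&Zflox, a difference of -1.84 that did not pass (SE 0.73, adjusted p = 0.178, edgeR's quasi-likelihood test). Leaving out one or the other R&Zdel library moved it between -3.47 and -1.10, and it was called without R&Zdel replicate 2, by the likelihood ratio test and without the filter on low counts. Baat and Slc10a1 were 2 of 10 members called lower at that time, where 7.6% of all genes were called and 4.63% were called lower. The single R&Zflox library is taken to vary like the other groups, and without R&Zdel replicate 1 0 members are called. With both libraries titled 170 days entered as 50-day controls, 4 members are called at 50 days, Baat, Slc27a5, Slc10a1 and Nr1h4, and no genotype comparison at 170 days can be made. With TMM scaling all 10 members had a fitted difference below 0 at 4 days and at 50 days (with library totals alone Nr1h4 is above 0 at 4 days), with medians of -1.27 and -0.80 beside 0.06 and 0.01 over all genes.

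At 170 days, under the placement by title, 0 of 10 members were called by edgeR's quasi-likelihood test, its likelihood ratio test or DESeq2, where the first test called 0.643% of genes, and 0 had an unadjusted p under 0.05, where 9.26% of genes had. Cyp27a1 was at 654 and 849 CPM in R&Zdel and at 430 and 508 CPM in R&Zflox, again without overlap (0.47, SE 0.22, adjusted p = 0.578). Cyp7a1 was at 50.3 and 36.4 CPM against 50.9 and 38.7 CPM. Differences of the 10 ran from -0.47 (Nr1h4) to 0.84 (Cyp8b1), with a median of -0.17 beside 0.00 over all genes.

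**Figure D5:**
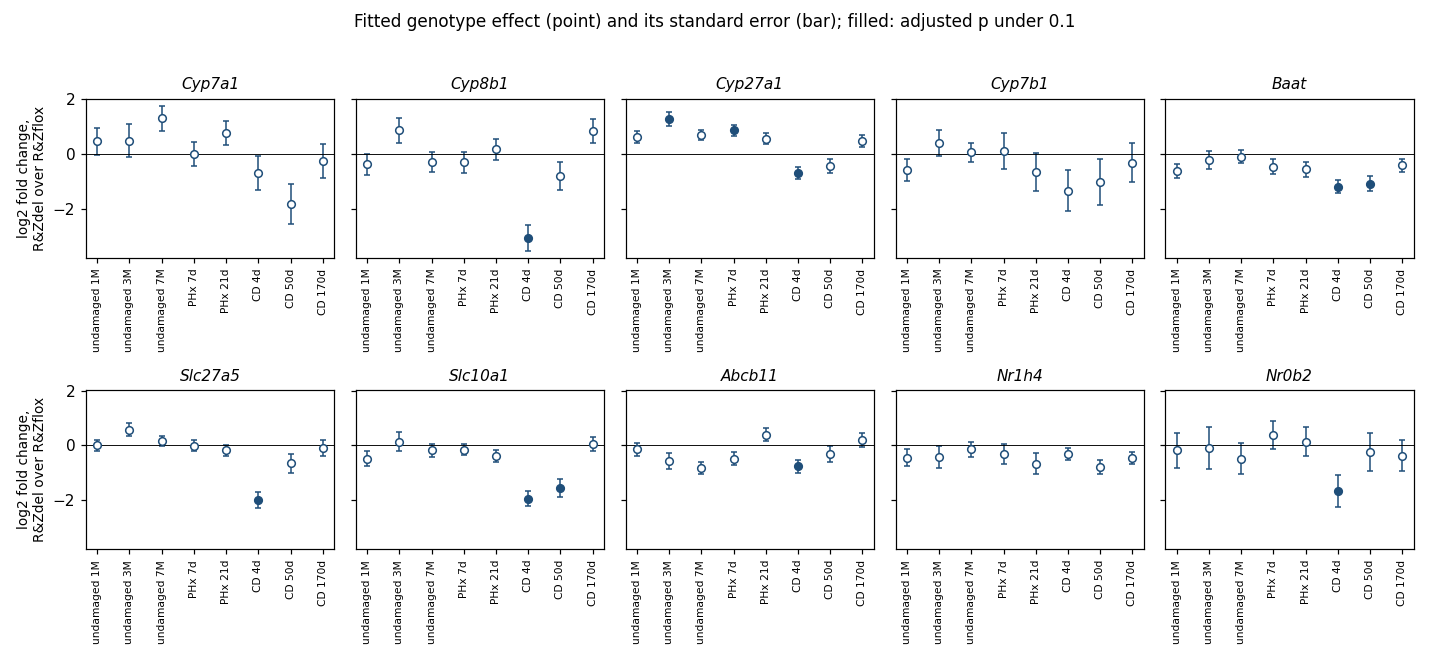
Fitted log2 fold change of R&Zdel over R&Zflox (y axis) for each member in 8 comparisons (x axis), with its standard error as the bar and a filled point where the adjusted p is under 0.1. At CD 4d 7 members have filled points, all below 0, from -0.70 to -3.07, and Cyp27a1 has filled points above 0 at 3M and at 7 days after PHx.

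Whether the genotype effect changed between times of recovery was tested in the same CD fit. Between 4 and 170 days, again under the placement by title, it changed for 4 of 10 members, where 7.66% of all genes passed: Cyp8b1 by 3.90 (SE 0.64, adjusted p = 0.0223), Slc10a1 by 2.003 (SE 0.38, adjusted p = 0.0315), Slc27a5 by 1.92 (SE 0.41, adjusted p = 0.0428) and Cyp27a1 by 1.17 (SE 0.31, adjusted p = 0.0791), by edgeR's quasi-likelihood test. Only the difference of Cyp8b1 was called in all 8 fits that left out a library, and it was the single one called without R&Zdel replicate 2 at 170 days or without R&Zflox replicate 1 at 4 days. Between 4 and 50 days 0 members passed, where 1.5% of genes did, while the likelihood ratio test called 1 and DESeq2 called 2, Cyp8b1 and Slc27a5.

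Of 38 other bile acid genes at 4 days, 12 were called lower and 5 higher, where 13% of all genes were called lower and 14.6% higher. Of the 11 synthesis genes among them 6 were lower and 0 higher, including the peroxisomal thiolase Scp2 at -1.92 (SE 0.32, adjusted p = 0.00653), and the sulfotransferase Sult2a8 fell by 3.53 on the log2 scale (SE 0.44, adjusted p = 0.00226). Among basolateral carriers the importer Slco1a1 fell by 3.37 (SE 0.55, adjusted p = 0.00581), while the efflux pump Abcc4 was at 18.9 and 20.1 CPM in R&Zdel and 1.20 and 2.12 CPM in R&Zflox, a difference of 3.05 (SE 0.44, adjusted p = 0.00356, edgeR's quasi-likelihood test throughout). At 50 days 4 were lower and 0 higher, the synthesis genes Cyp39a1 (-1.33), Akr1d1 (-1.37), Slc27a2 (-1.36) and Cyp2c70 (-1.05). At 170 days 0 were called in either direction by edgeR's quasi-likelihood test, with 6 higher and 0 lower at an unadjusted p under 0.05.

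Markers of bile duct cells moved with genotype at 4 days. All 5 cholangiocyte markers tested were higher in R&Zdel livers, and the summed level of the list of 6 was 3633 to 6474 CPM in R&Zdel and 89.1 to 161 CPM in R&Zflox, where Cftr was under 1 CPM. At 50 days the sum was 595 to 1176 CPM against 104 CPM, and at 170 days 253 to 303 CPM against 57.8 to 252 CPM. Over the same libraries at 4 days all 4 periportal markers were lower, with sums of 151 to 191 CPM against 3718 to 4310 CPM, and the sum of 6 general hepatocyte markers was 75950 to 93172 CPM against 96998 to 98540 CPM, 1 of the 6 being called lower. Of the other markers, 1 stellate (Col1a1) and 1 pericentral gene (Axin2) were called higher, 2 endothelial genes (Stab2 and Lyve1), 1 blood gene (Alas2) and 1 intestine and pancreas gene (Fabp2) lower, and 0 macrophage or leukocyte genes either way. The clock genes Per1, Per2 and Per3 were called higher and Nr1d1 lower at 4 days, and 0 clock genes were called between genotypes at any other time by edgeR's quasi-likelihood test, with at most 1 higher and 3 lower at an unadjusted p under 0.05. The part of cell makeup, zonation and collection time in the member values was not tested.

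Within R&Zflox livers, 4 days after CD were compared with undamaged 3M livers of the same batch, 2 against 2. By edgeR's quasi-likelihood test 0 of 10 members were called, where 2.07% of all genes were, while 4 had an unadjusted p under 0.05 (14.5% of all genes), the likelihood ratio test called 2 and DESeq2 called 3. Cyp7b1, at 41.2 and 6.20 CPM against 295 and 200 CPM, and Slc10a1, at 471 and 357 CPM against 939 and 798 CPM, lay just outside the threshold at -3.44 (SE 0.89, adjusted p = 0.102) and -1.14 (SE 0.30, adjusted p = 0.104). Both were lower after CD without overlap. Slc27a5 at 0.17 (SE 0.30) and Cyp8b1 at -0.10 (SE 0.43) had values near those of undamaged controls. Of the 38 other bile acid genes 3 were called lower, the receptor CAR, Nr1i3, at -2.79, Sult2a8 at -2.33 and the efflux pump Abcc3 at -1.19, and 0 higher.

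Among R&Zdel livers, those at 170 days after CD were compared with undamaged ones at 7M in the first batch, again 2 against 2. By each of edgeR's quasi-likelihood test, its likelihood ratio test and DESeq2 0 of 10 members were called, the first calling 0% of genes. Cyp7a1 was at 50.3 and 36.4 CPM after CD and 161 and 74.1 CPM undamaged (-1.54, SE 0.63, adjusted p = 0.852, edgeR's quasi-likelihood test), and Abcb11 was at 283 and 280 CPM against 124 and 185 CPM (0.80, SE 0.25, adjusted p = 0.834), these being the 2 members at an unadjusted p under 0.05, where 5.53% of all genes were.

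The genes whose levels followed Cyp7a1 most closely over the 30 libraries of the second batch were Mat1a, Agfg2 and Lipa, with Spearman's rho of 0.73, 0.70 and 0.67, among 8522 genes. For Nr0b2 they were Elovl3, Serpina1c and Ern1, with 0.68, 0.63 and 0.63. Cyp7a1 and Nr0b2 had a rho of -0.38 with each other. These values describe libraries that share groups, sexes and collection times.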

How the data were processed

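The authors sequenced liver RNA as unstranded Smart-Seq2 libraries. The deposited values are raw counts of reads per gene from featureCounts (1.5.0-p1 and 1.5.0-p3 per the labels), after trimming and alignment to mm10 with STAR 2.5.0a. The trimmer and featureCounts version differ between the labels and the methods. Symbols shared by both batches (34490) were used, and CPM are per total over them. The 10 members and all gene lists were chosen with earlier results of these data known. There were 42 other bile acid genes, 12 clock genes and markers of liver cell types and zones.

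Fits used edgeR 4.0.16 (R 4.3.3, TMM, quasi-likelihood test). Over 25 undamaged libraries (sex and batch terms) and 20 PHx and 1M libraries (sex term), genes with CPM above 1 in at least 3 libraries were fitted. Over 11 CD libraries, and 18 first-batch libraries for CD against undamaged livers, the limit was CPM of at least 1 in at least 50% of the libraries. A gene was called at a Benjamini-Hochberg adjusted p under 0.1, two-sided. P-values measure the spread between these libraries. DESeq2 1.42.0, edgeR's likelihood ratio test and further settings were alternatives, and the script was tested on simulated data. The named genes are the 10 members, with others given by rank of adjusted p within their list. Libraries with the same replicate number had correlated deviations of -0.36 to 0.33 and were not treated as pairs. Samples, sex and route come from the labels and the methods, and libraries with conflicting labels entered only alternatives, except both R&Zflox libraries at 170 days, placed by GEO title where the study's list gives 50 days.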

Additional observations from a re-analysis of the deposited data

Results flagged for a closer look

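The genotype effect after CCl4 differed between 4 and 170 days of recovery for 4 members by the test of the difference itself (edgeR's quasi-likelihood test): Cyp8b1 by 3.90, Slc10a1 by 2.003, Slc27a5 by 1.92 and Cyp27a1 by 1.17 on the log2 scale. Each moved towards a higher level in R&Zdel relative to R&Zflox livers at 170 days than at 4 days. At 170 days itself 0 of 10 members were called, with Slc27a5 at -0.09 and Slc10a1 at 0.05. The differences remained called in 16, 14, 11 and 7 of 16 other settings, respectively, which include the study's call rule on the same fit. All of them rest on the R&Zflox libraries placed at 170 days by their titles, which the study's list gives at 50 days; with that placement the difference cannot be computed.

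Libraries outside the comparisons held members above the highest of the 4 undamaged R&Zflox libraries of the first batch, which were at 67.4 CPM for Cyp7a1, 622 CPM for Cyp27a1, 1525 CPM for Slc27a5 and 939 CPM for Slc10a1. All 5 outside libraries had female levels of Xist (20.3 to 70.3 CPM) and Y-linked RNA at 0.27 CPM or less. Of the R&Zflox libraries, the one at 65.8 CPM for Cyp7a1 was listed female and the others male. The part of sex in these values was not tested. The R&Zdel library at 7M without a listed sex had Cyp7a1 at 94.8 CPM and Cyp27a1 at 879 CPM. A library titled as a control 50 days after CD but described as undamaged at 3 months (i707_i517) had Cyp7a1 at 291 CPM and Cyp27a1 at 922 CPM. Of the 3 other libraries without a usable condition, i701_i503 had Cyp7a1 at 212 CPM, Slc27a5 at 1770 CPM and Slc10a1 at 986 CPM. Library i705_i503 had Cyp7a1 at 135 CPM, Cyp27a1 at 785 CPM and Slc27a5 at 1642 CPM. Library i711_i503 had Cyp7a1 at 135 CPM, Slc27a5 at 1715 CPM and Slc10a1 at 957 CPM. In the R&Zdel and the R&Zflox group of 4 libraries at 1M none of the 10 members had a value far from the other 3, in 20 sets of values tested.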

How the results depend on the processing

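Under settings other than leaving out a library, 164 counts of called members stayed within 1.5 times the reported count and 40 did not, and 444 fold changes kept their side of the threshold, 33 gained and 27 lost a call and 3 turned sign. The study's looser rule for lipid genes, added after seeing the data, took 2 members at 1M, 2 at 3M and 3 at 7M, in place of 0, 1 and 0. At 7M, with 0 reported, no filter on low counts called 1 member, the likelihood ratio test 1 and DESeq2 3. On average over times, with 2 reported, the study's rule of a log2 change above 1 called 0, while library totals alone, males alone, the second batch alone, i707_i517 as R&Zflox and the R&Zdel library without a listed sex each left 1, Cyp27a1. At 3M the call of Cyp27a1 went to 0 with males alone and with i707_i517 as R&Zflox. At 4 days after CD library totals alone called 4 in place of 7. At 50 days, with 2 reported, no filter called 5, the likelihood ratio test 4, library totals alone 1 and both R&Zflox libraries of 170 days entered as 50-day controls 4. At 170 days, and for 170 days against undamaged R&Zdel livers, no filter called 1 in place of 0. The difference between 50 and 4 days was called for 4, 1, 2 and 1 members without a filter, by the likelihood ratio test, by DESeq2 and with those libraries at 50 days, in place of 0, and that between 170 and 4 days for 7 without a filter, in place of 4. At 7 days after PHx the call went to 0 with DESeq2 size factors, the study's rule, no sex term, PHx libraries alone and males alone. R&Zflox at 21 days after PHx against 1M had 1 call by DESeq2, and R&Zflox at 4 days after CD against undamaged had 4, 2, 3 and 1 without a filter, by the likelihood ratio test, by DESeq2 and with library totals alone, where 0 were reported. Cyp7a1 at 7 days after PHx, reported at -0.01, was 0.051 with library totals alone and 0.42 with R&Zflox replicate 3 entered as female, and in R&Zflox against 1M it was -0.23 without a sex term, in place of 0.74.

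Leaving out each library in turn gave 0 to 0 calls at 1M, 0 to 1 at 3M, 0 to 1 at 7M, 1 to 3 on average, 4 to 6 at 4 days after CD, 0 to 3 at 50 days, 0 to 0 at 170 days, 0 to 1 at 7 and 0 to 0 at 21 days after PHx, 1 to 6 for the difference between 170 and 4 days, 0 to 1 for that between 50 and 4 days and 0 to 1 for R&Zflox at 4 days after CD against undamaged. Cyp7a1 ran from -0.60 to 0.36 at 7 days after PHx and from -0.19 to 0.10 in R&Zflox at 21 days against 1M.

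With a replicate block, members called went to 0 at 3M, 1 on average and 1 at 50 days after CD, and to no other count by more than 1.5 times. Numbers at 170 days after CD were crossed in deviation (correlation -0.36), and a crossed block, added after seeing the data as were library totals alone and the change of sex, called 1 at 50 days. Groups of 1 or 2 libraries limit all CD results, and the cause of these changes was not tested.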

Other observations

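Undamaged livers also differed by sex. Cyp7b1, known as a male-biased enzyme of mouse liver, ranged from 115 to 468 CPM (median 226) in the 19 listed males and from 13.4 to 74.5 CPM (median 44.2) in the 6 listed females of the undamaged fit, without overlap. The log2 difference, male over female, was 2.79 (SE 0.34, adjusted p = 8.53e-06, edgeR's quasi-likelihood test), the only called one among the 10 members, where 1.06% of all genes were called. For Cyp7a1 the difference was -1.30 (SE 0.42, adjusted p = 0.274), and Nr0b2 was at 1.11 (SE 0.53, adjusted p = 0.728). These members were singled out after their values were seen. In the R&Zflox library at 7 days after PHx with female levels of Xist and Y-linked RNA, Cyp7b1 was at 13.9 CPM, beside 280 and 255.8 CPM in the other 2 of its group. In the 4 libraries without a usable condition Cyp7b1 was between 29.6 and 39.9 CPM, and in the R&Zdel library without a listed sex, where Xist was at 56.6 CPM, it was at 40.9 CPM.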
